A study of Drosophila melanogaster with 2 samples.

Results

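The subunit genes of oxidative phosphorylation were examined for binding of the transcription factor foxo by chromatin immunoprecipitation sequencing (ChIP-seq) in Drosophila melanogaster. Members were all protein-coding genes of the Ensembl annotation of the dm6 assembly whose symbol begins with ND- (complex I), COX4 to COX8 (complex IV), ATPsyn (complex V) or UQCR (complex III), or is SdhA, SdhB, SdhC or SdhD (complex II). The rule gave 84 of 13945 protein-coding genes on 6 chromosomes (the arms of 2 and 3, 4 and X), namely 40 genes of complex I, 4 of complex II, 9 of complex III, 16 of complex IV and 15 of complex V. The rule read no binding values. It took symbols only, so subunit genes with other names, such as the ATP synthase alpha subunit gene blw, fell outside it and are given as a separate list. Of the 84 members, 21 carry a symbol with an added L, L1 or L2 at its end, which marks them by name as paralogs of another subunit gene, and 63 do not. ND-MNLL also ends in L but was not taken as a paralog name, and is counted among the 63 without an L ending.

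All samples were whole third-instar larvae at the wandering stage, males and females pooled, from 1 transgenic line that stably expresses foxo with green fluorescent protein (eGFP) fused to its C-terminus. Chromatin was sheared by sonication and precipitated through the tag with an antibody against GFP, per one label, while another label field names foxo as the antibody. The 2 biological replicates, numbered 5 and 6, form 1 group, so there is no untreated, mutant or other comparison group, and whole animals mix all larval tissues. The control library named in the labels was not analysed here, the age field reads unknown, and whether the endogenous foxo gene was intact was not given in the sources used here.

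Oxidative phosphorylation passes electrons from NADH through complex I, or from succinate through complex II, to complex III, cytochrome c and complex IV, and the proton gradient made on the way drives ATP synthesis by complex V. Its subunits are encoded partly in mitochondrial DNA and mostly in the nucleus, and the members are nuclear genes. foxo is a forkhead transcription factor that insulin signalling keeps out of the nucleus, and it is known for regulating growth and metabolism in the fly. In Drosophila, many duplicated copies of nuclear genes for mitochondrial proteins are known for expression in the testis.

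The authors deposited 4 interval lists on dm6 that were used here. A relaxed list of 30000 regions, meant to hold peaks and background alike, exists for each replicate and for both replicates pooled. A strict list of 1427 peaks was thresholded by irreproducible discovery rate (IDR), which asks how alike the replicates rank regions. These 1427 peaks were identical to the 1427 pooled regions of highest signal. The signal of a region is the value of the authors' caller, on a scale that was not stated. Ranks (1 is the highest) and percentiles within a list are therefore given beside it. Read depth is unknown, and the fixed list length says nothing of it. At a q-value of at most 0.01, replicate 5 held 1061 regions and replicate 6 held 6870, against 3553 in the pooled list. A gene was counted as having a region if it had a transcription start site (TSS) no more than 1000 bp from a summit. Intervals are exact (Clopper-Pearson) 95% binomial intervals, and they cover counting error over genes only.

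The strict list reached few members. An IDR summit lay near 5 of 84 members (5.95%, interval 1.96 to 13.3%), against 7.71% of all protein-coding genes. The members were ND-ASHI, ND-SGDH and ND-MWFE of complex I, COX7AL2 of complex IV and ATPsynE of complex V. Complex I therefore had 3 of 40 genes (7.5%, 1.57 to 20.4%), complex IV 1 of 16 (6.25%, 0.158 to 30.2%) and complex V 1 of 15 (6.67%, 0.169 to 31.9%). Complex II had 0 of 4, which allows up to 60.2%, and complex III 0 of 9, which allows up to 33.6%. The share of members lay near that of all genes, and the complexes' intervals overlapped widely. ND-ASHI, ND-SGDH and ND-MWFE are accessory subunits of the membrane arm of complex I, named after residues of their bovine counterparts. ATPsynE is subunit e of the membrane part of ATP synthase, and COX7AL2 is by name a paralog of the cytochrome oxidase subunit COX7A.

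The DNA under these peaks matched the forkhead consensus about as often as that under IDR peaks at large. Windows of 151 bases around 6 of the 7 IDR summits are shown because these summits lie within 1000 bp of a member TSS. They come from the dm6 reference genome, 5′ to 3′ on the strand of the member, and capitals mark matches to the forkhead consensus RYAAAYA on either strand (R is A or G, Y is C or T).
ND-ASHI (chrX:6679323-6679473, minus strand): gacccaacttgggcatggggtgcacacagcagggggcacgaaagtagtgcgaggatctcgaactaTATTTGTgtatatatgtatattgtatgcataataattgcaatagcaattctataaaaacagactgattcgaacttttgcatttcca
ND-SGDH (chr3L:12138685-12138835, minus strand): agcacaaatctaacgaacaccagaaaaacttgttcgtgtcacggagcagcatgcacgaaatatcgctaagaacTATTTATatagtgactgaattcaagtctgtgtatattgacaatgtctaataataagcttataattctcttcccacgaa
ND-SGDH (chr3L:12139456-12139606, minus strand): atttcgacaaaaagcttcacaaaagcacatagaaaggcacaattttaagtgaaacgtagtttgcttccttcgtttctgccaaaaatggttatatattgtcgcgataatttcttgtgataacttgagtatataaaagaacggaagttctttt
COX7AL2 (chr2L:2193410-2193560, minus strand): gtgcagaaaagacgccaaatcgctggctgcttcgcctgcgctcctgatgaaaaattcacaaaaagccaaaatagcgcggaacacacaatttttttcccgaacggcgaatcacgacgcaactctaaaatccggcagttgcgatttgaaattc
COX7AL2 (chr2L:2196862-2197012, minus strand): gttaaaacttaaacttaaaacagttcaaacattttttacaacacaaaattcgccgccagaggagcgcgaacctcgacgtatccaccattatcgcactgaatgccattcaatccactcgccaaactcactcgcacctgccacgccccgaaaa
ATPsynE (chr3R:14327866-14328016, plus strand): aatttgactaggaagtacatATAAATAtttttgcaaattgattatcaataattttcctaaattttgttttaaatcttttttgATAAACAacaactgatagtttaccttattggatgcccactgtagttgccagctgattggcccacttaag
The ND-ASHI window and the first ND-SGDH window each held 1 match, ATPsynE held 2 matches, and the second ND-SGDH window and both COX7AL2 windows held none. Over the wider window of 100 bp each side of the summit, 4 of the 7 member IDR summits held RYAAAYA (57.1%), against 52.1% of all 1427 IDR summits. The stricter FOXO core TGTTTAC was in 0 of 7 member windows, against 6.52% of all IDR summits. A missing match says only that these letters are not in the window.

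The peak at ND-ASHI was the highest within 1000 bp of any member TSS. It spanned chrX:6679208-6679587, with a pooled signal of 107 at rank 466, a signal of 50.3 at rank 539 in replicate 5 and a signal of 47.8 at rank 1034 in replicate 6. Both replicates therefore placed it near the top of their lists, with q-values of 0.000782 in replicate 5 and 0.000136 in replicate 6. The summit lay 280 bp upstream of the nearest ND-ASHI TSS, inside an intron of Fum1, the gene of fumarase in the tricarboxylic acid cycle, which runs in the opposite direction. It was nearer to a Fum1 TSS, at 242 bp.

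ND-SGDH had 2 IDR peaks on chromosome 3L. The first, chr3L:12138570-12138949, had a pooled signal of 95.3 at rank 614, with 50.5 at rank 533 in replicate 5 and 45.3 at rank 1208 in replicate 6. Its summit lay in the intergenic gap 176 bp upstream of ND-SGDH. The second, chr3L:12139341-12139720, had a pooled signal of 80.7 at rank 972, with 45.9 at rank 681 in replicate 5 and 32.5 at rank 2709 in replicate 6. It was 947 bp upstream of ND-SGDH, close to the 1000 bp limit.

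The peak at ND-MWFE, chr2R:13158254-13158633, was the lowest IDR peak within 1000 bp of a member TSS, at a pooled signal of 70.7 and rank 1344. The lowest signal in the IDR list was 69.0 and the median 90.6. Replicate 5 gave it 39.9 at rank 955 and replicate 6 gave it 22.1 at rank 6032, so the replicates ranked it differently. Its summit was 222 bp upstream of ND-MWFE and 1 bp downstream of a TppII TSS, in the 5′ UTR of that gene, which encodes tripeptidyl-peptidase II.

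COX7AL2 rested mainly on replicate 6. Of its IDR peaks within 1000 bp of a TSS, the stronger was chr2L:2196747-2197126, 975 bp downstream of a TSS in an intron of COX7AL2. It had a pooled signal of 85.2 at rank 839 and 89.6 at rank 143 in replicate 6. Replicate 5 had no summit within 150 bp of it. The other, chr2L:2193295-2193674, had a pooled signal of 73.0 at rank 1249, with 22.7 at rank 3894 in replicate 5 and 42.3 at rank 1427 in replicate 6, and was 475 bp upstream of a second TSS. COX7AL2 was the only member of the 5 whose own TSS was the nearest to its IDR summits.

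The ATPsynE peak, chr3R:14327751-14328130, lay past the end of its gene. Its pooled signal was 78.2 at rank 1035, with 33.8 at rank 1438 in replicate 5 and 54.8 at rank 692 in replicate 6. The summit was 873 bp downstream of an ATPsynE TSS. Of the 5 members with an IDR summit, 4 thus had another gene's TSS nearer to the summit, and these peaks cannot be told apart as peaks of the member or of its neighbour. With a summit counted only for the gene of the nearest TSS, 1 of 84 members kept one (1.19%), against 5.62% of all genes. Counted for every gene within 1000 bp, the shares were 5.95% and 7.71%. Another gene's TSS lay within 1000 bp of 66.7% of members, against 48.2% of all genes.

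**Figure D1:**
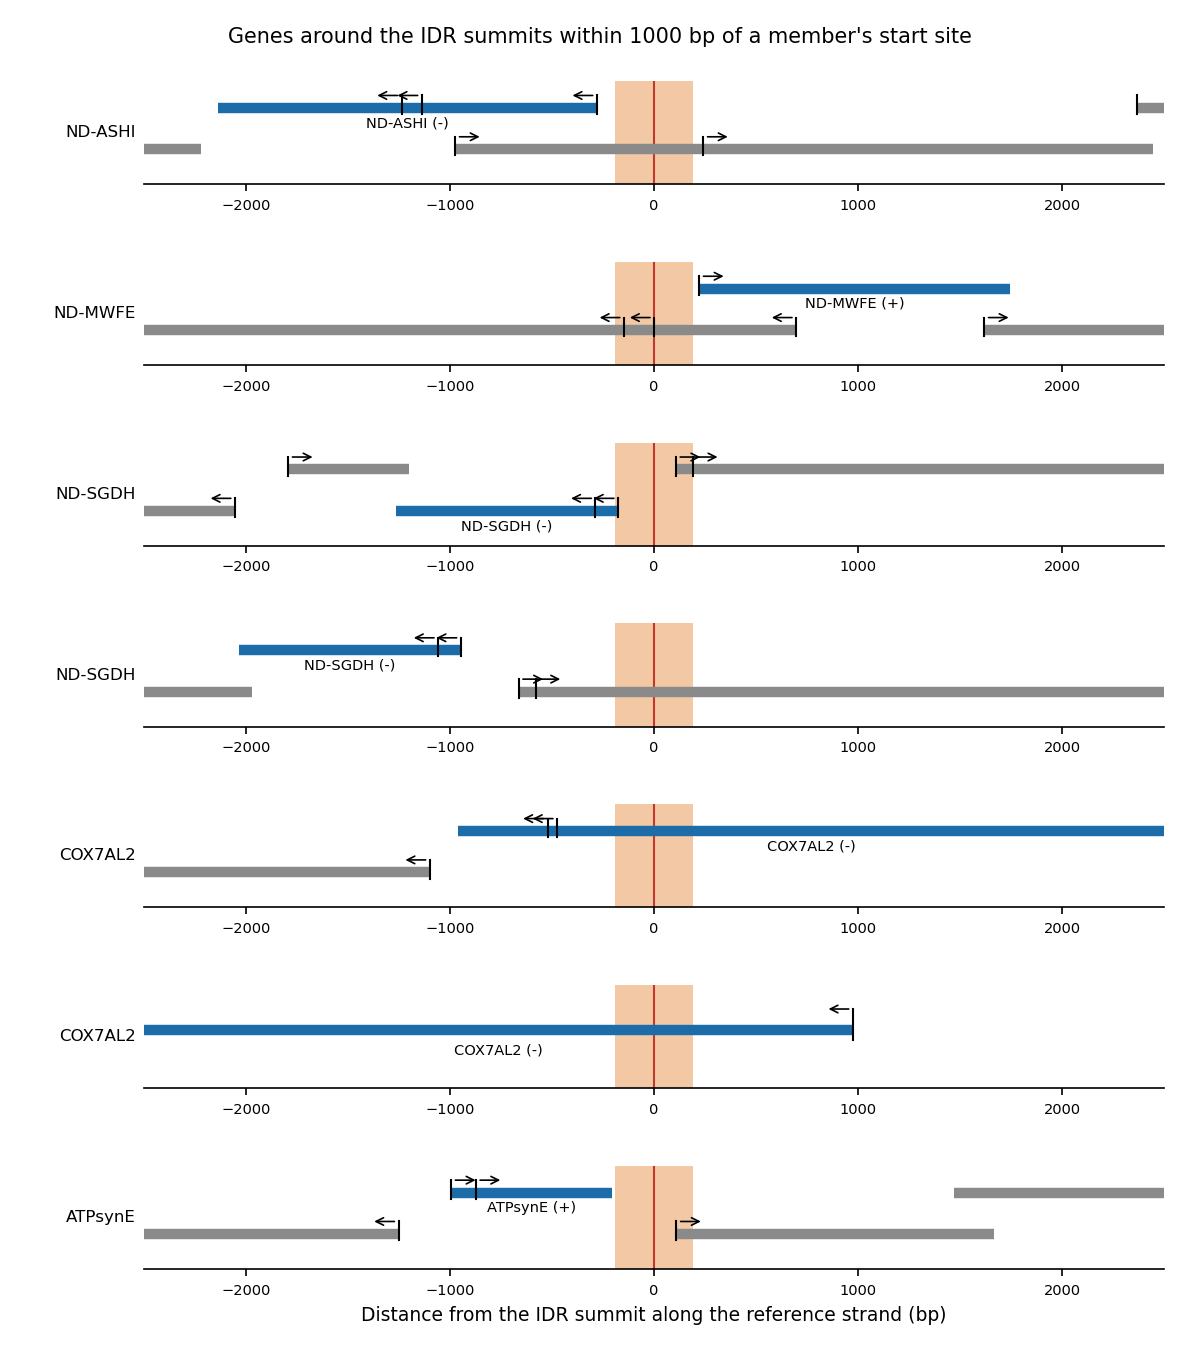
Genes around the 7 IDR summits within 1000 bp of a member's TSS, by distance in bp from the summit (red line) along the reference strand. Shading is the deposited peak, blue bars are the member, grey bars are other protein-coding genes (not named), and arrows mark each TSS and its direction. At ND-ASHI, ND-SGDH, ND-MWFE and ATPsynE a grey gene starts nearer to the summit than the blue one, and both COX7AL2 summits lie within COX7AL2.

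The count depended on the distance and on the replicate. Between 1000 and 2000 bp from a member TSS, IDR summits lay at ND-39 (1534 bp downstream, signal 78.2), SdhA (1254 bp downstream, 70.6) and COX7C (1956 bp upstream, 89.4), and a further COX7AL2 peak of signal 151 at rank 188 lay 1482 bp upstream. The highest members without an IDR summit within 1000 bp were ND-75, with a pooled signal of 57.8 at rank 2167, and UQCR-C2, with 52.0 at rank 2740. Both lay below the lowest IDR signal of 69, as they must, because the IDR list is the pooled regions of highest signal. Taking the 1427 regions of highest signal of each replicate alone, replicate 5 reached 3 members (3.57%, against 7.44% of all genes), which were ND-ASHI, ND-MWFE and ND-SGDH. Replicate 6 reached 4 members (4.76%, against 7.6% of all genes), which were ATPsynE, COX7AL2, ND-ASHI and ND-SGDH. ND-ASHI and ND-SGDH were the members reached in both.

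In the relaxed lists, members with a region were about as frequent as among all genes. The pooled list had a summit near 52 members (61.9%, 50.7 to 72.3%), against 58.3% of all genes. Replicate 5 had one near 43 members (51.2%, 40 to 62.3%), against 54.6% of all genes, and replicate 6 near 57 members (67.9%, 56.8 to 77.6%), against 61.6%. Both replicates had one near 35 members (41.7%), against 43.6% of all genes. No relaxed list had a region near 16 members (19%, 11.3 to 29.1%), against 26.2% of all genes. With a q-value of at most 0.01, the counts were 10 members in the pooled list (11.9%, against 17.5%), 3 in replicate 5 (3.57%, against 5.84%) and 25 in replicate 6 (29.8%, against 30.2%). The 10 in the pooled list were the 5 with an IDR summit and ATPsynbeta, ND-24, ND-75, ND-B14.5A and UQCR-C2.

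Among members with a pooled region, the median percentile was below that of all genes. The 5 with an IDR summit had pooled ranks between 466 and 1344. A rank of at most 1427 was fixed for them, because the IDR list is the 1427 pooled regions of highest signal. The best region had a median percentile of 72.2 (quartiles 54.8 and 84.8, n = 52), against 76.8 over 8132 protein-coding genes with a region, and signals of 14.4 to 107 with a median of 30.0, against a median of 33.1. In replicate 5 the median percentile was 53.3 (n = 43), against 73.6 over all genes with a region, and in replicate 6 it was 72.9 (n = 57), against 76.4.

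Pooled regions were found near 25 of 40 genes of complex I (62.5%, 45.8 to 77.3%), 4 of 4 of complex II, 6 of 9 of complex III (66.7%, 29.9 to 92.5%), 13 of 16 of complex IV (81.2%, 54.4 to 96%) and 4 of 15 of complex V (26.7%, 7.79 to 55.1%). The interval of complex V lay below the 58.3% of all genes, and those of the other 4 complexes held it. Without the 4 complex V genes with an L ending, none of which has a pooled region, the share was 4 of 11 (36.4%, 10.9 to 69.2%), an interval that also holds it. Replicate 5 had a region near 3 of 15 genes of complex V (20%, against 54.6% of all genes), and replicate 6 near 9 of 15 (60%, 32.3 to 83.7%, against 61.6% of all genes). The median percentile of the best pooled region was 71.9 in complex I, 71.4 in complex II, 62.1 in complex III, 72.4 in complex IV and 80.8 in complex V.

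**Figure D2:**
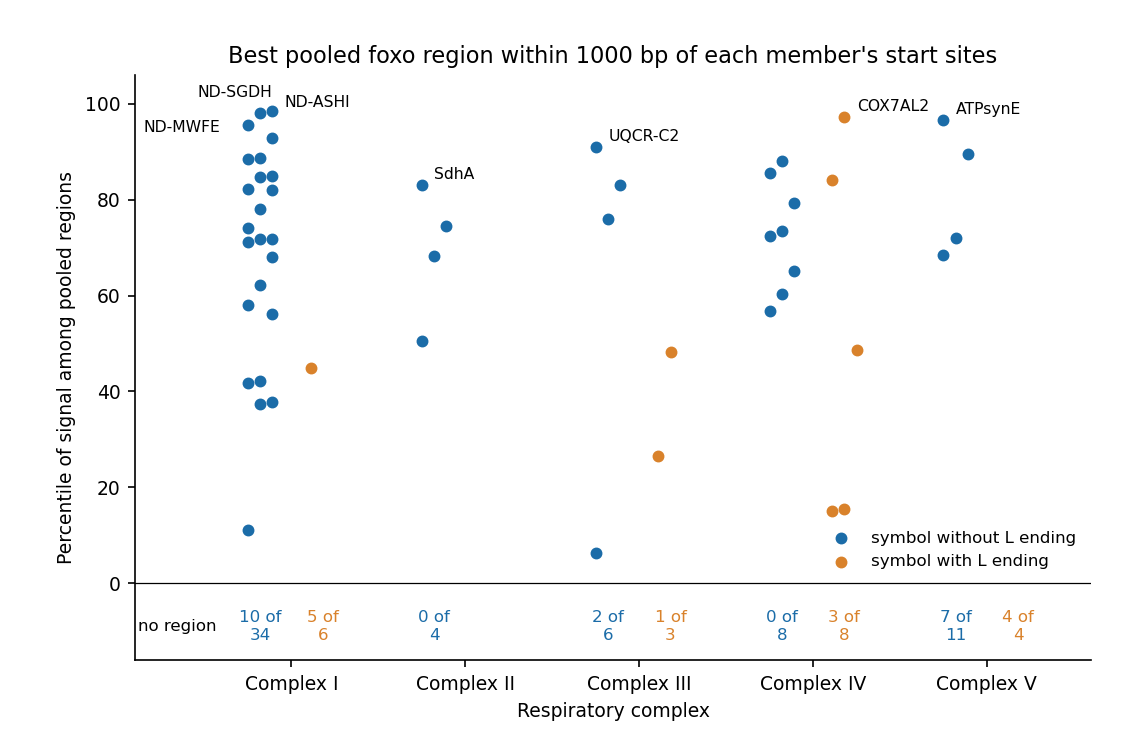
Percentile of signal, within the 30000 pooled regions, of the best region within 1000 bp of each member's TSSs, by respiratory complex. Each point is 1 gene, blue for symbols without and orange for symbols with an L ending, and the numbers under the line count genes with no pooled region. ND-ASHI and ND-SGDH are at the top of complex I, all 8 complex IV genes without an L ending have a region, and 11 of 15 complex V genes have none. Of all protein-coding genes, 58.3% have a pooled region.

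Complex I, the NADH dehydrogenase, has 7 nuclear catalytic core subunits and many accessory ones. This division was made after the values had been seen, so it is a description. The 7 core genes, which carry the flavin and iron-sulfur centres in flies as in mammals, had 0 IDR summits, 5 pooled regions and 6 regions in each replicate. The 8 accessory genes of the peripheral arm had 0 IDR summits, 4 pooled regions, 4 regions in replicate 5 and 5 in replicate 6. The 18 accessory genes of the membrane arm had the 3 IDR summits (16.7%, 3.58 to 41.4%), 14 pooled regions, 9 regions in replicate 5 and 17 in replicate 6. Over all genes the shares were 7.71% for IDR summits, 58.3% for pooled regions, 54.6% for replicate 5 and 61.6% for replicate 6. ND-MLRQ, whose mammalian counterpart is counted with complex IV, was left out of this division.

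ND-75 is the largest core subunit of complex I, with iron-sulfur clusters. Its best pooled region, 773 bp upstream, had a signal of 57.8 at rank 2167, with 18.5 at rank 6382 in replicate 5 and 36.1 at rank 2141 in replicate 6. At the region nearest to its TSS, 77 bp upstream, the replicates stood further apart, with 9.1 at rank 29518 in replicate 5 and 23.7 at rank 5307 in replicate 6. The accessory subunit gene ND-B14.5B showed the same order, with 9.46 at rank 27584 in replicate 5 and 24.4 at rank 5047 in replicate 6, 141 bp upstream. These regions were near the bottom of the list in replicate 5 and in its upper part in replicate 6.

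Complex II, succinate dehydrogenase, takes electrons from succinate and is also an enzyme of the tricarboxylic acid cycle. SdhA, the flavoprotein, had a pooled signal of 38.8 at rank 5079, 229 bp upstream of its TSS, with 23.8 at rank 3472 in replicate 5 and 13.6 at rank 13443 in replicate 6. The highest replicate 6 region near SdhA was a different one, 827 bp upstream, with 32.2 at rank 2755. SdhB, the iron-sulfur subunit, had 21.5 at rank 14834, with rank 18354 in replicate 5 and rank 12149 in replicate 6. SdhC and SdhD are the membrane anchors. The best pooled region of SdhC lay 921 bp downstream of its TSS, with a signal of 31.5 at rank 7642. Another pooled region, 22 bp upstream of the TSS, was nearly as high, with a signal of 31 at rank 7858. Replicate 5 had no region near SdhC, and the best in replicate 6 was a different one, 277 bp upstream, with 32.0 at rank 2801. SdhD had a pooled signal of 27.9 at rank 9538, 322 bp upstream, with 11.6 at rank 18638 in replicate 5. Replicate 6 had no summit within 150 bp of it, and its best region, 154 bp upstream, had 19.0 at rank 7873. The 4 genes all had pooled regions, none at a q-value of at most 0.01, and SdhA and SdhC passed that q-value in replicate 6, at 0.000136 each.

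Complex III passes electrons from ubiquinol to cytochrome c. UQCR-C2, a core protein of the complex, had its highest region, 73 bp downstream of a TSS, with a pooled signal of 52.0 at rank 2740, 25.1 at rank 3051 in replicate 5 and 27.8 at rank 3826 in replicate 6. This was one of the members on which the replicates ranked alike. UQCR-C1, the other core protein, had no region in any list. Among the genes with a pooled region, 5 of 6 had the summit downstream of the TSS, and the median distance was 568 bp downstream. Over all genes with a pooled region, 72.4% had it upstream, with a median 107 bp upstream. Of the 6 genes, 2 have an L ending, and the UQCR-11 region stood at rank 28109. In replicate 6 the median over 4 genes of the complex was 44 bp downstream.

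Complex IV, cytochrome c oxidase, reduces oxygen to water. All 8 of its genes without an L ending had a pooled region (63.1 to 100%, against 58.3% of all genes). All 8 also had a replicate 6 region (63.1 to 100%, against 61.6%). In replicate 5, 6 of 8 had one (75%, 34.9 to 96.8%), an interval that holds the 54.6% of all genes. An IDR summit lay near 0 of these 8. COX5A had a pooled signal of 41.9 at rank 4334, 92 bp upstream, with 9.57 at rank 26999 in replicate 5 and 27.6 at rank 3912 in replicate 6. COX7A went the other way at the pooled region nearest to its TSS, 77 bp upstream, where the pooled signal was 30.1 at rank 8268, with 19.3 at rank 5784 in replicate 5 and 7.81 at rank 28360 in replicate 6. With ND-75 and ND-B14.5B, these were the 4 members with the largest rank differences between the replicates.

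Complex V, ATP synthase, had the highest share of members with no region in any list. These were 6 of its 15 genes (40%, 16.3 to 67.7%), against 26.2% of all genes. Without its genes with an L ending the count was 2 of 11 (18.2%, 2.28 to 51.8%). The 6 included ATPsynO, which joins the catalytic head to the peripheral stalk, and ATPsyngamma, the central rotor shaft, as well as all 4 genes with an L ending, ATPsynCF6L, ATPsynGL, ATPsynbetaL and ATPsynepsilonL. ATPsynbeta, the catalytic subunit, had pooled rank 3121, 33 bp downstream of its TSS, with 10.4 at rank 23125 in replicate 5 and 41.2 at rank 1523 in replicate 6. Of the 11 genes without an L ending, 4 had a pooled region (36.4%, against 58.3% of all genes) and 3 a replicate 5 region (27.3%, against 54.6%). A replicate 6 region was found near 9 of the 11 (81.8%, against 61.6%). Among them, ATPsynF had a replicate 6 signal of 36.7 at rank 2049 and no region in the pooled list or in replicate 5.

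Summits of the replicates' best regions matched about as often near members as near all genes. The higher percentile was in replicate 6 for a larger share of members than of all genes. Of the 35 members with a region in both replicates, 25 had the higher percentile in replicate 6 (71.4%), against 51% of 6079 genes. No interval was made for this share. Their best regions had summits within 150 bp of each other in 19 of 35 (54.3%), against 48.4% of all such genes. A region in replicate 6 alone was found near 22 members (26.2%, against 18% of all genes, which the exact 95% interval of the members' share held), none of which has an L ending. A region in replicate 5 alone was found near 8 members (9.52%, 4.2 to 17.9%, against 11% of all genes), of which 5 have an L ending. Of the 52 pooled regions nearest to a member TSS, 27 matched a summit within 150 bp in both replicates, 14 in replicate 6 alone, 5 in replicate 5 alone and 6 in neither. This split was not counted over all genes, so it cannot be read as particular to members.

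**Figure D3:**
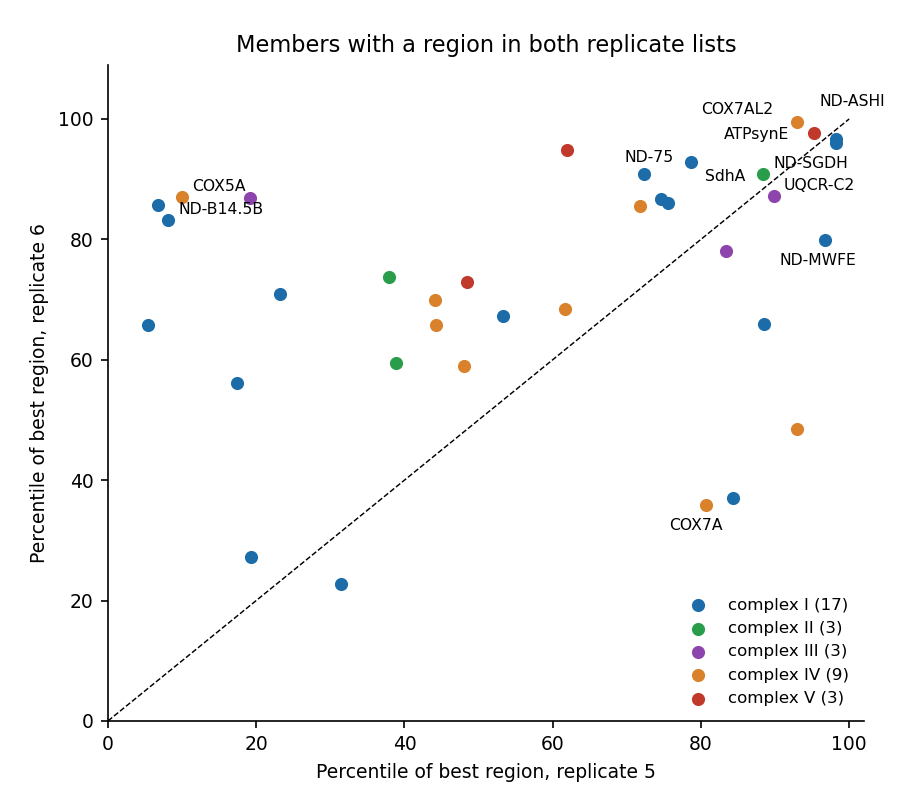
Percentile of signal of the best region in replicate 5 (horizontal) and replicate 6 (vertical) for the 35 members with a region in both, coloured by complex; the dashed line marks equal percentiles. 25 of 35 points lie above the line, with COX5A and ND-B14.5B at low percentiles in replicate 5 and COX7A below the line.

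The counts of members with and without a paralog name differed most in replicate 6. In replicate 6, 54 of 63 members without an L ending had a region (85.7%, 74.6 to 93.3%), and 3 of 21 with one (14.3%, 3.05 to 36.3%), against 61.6% of all genes. The pooled list had 44 of 63 (69.8%) and 8 of 21 (38.1%), against 58.3%, and replicate 5 had 35 of 63 (55.6%) and 8 of 21 (38.1%), against 54.6%. No region in any list was found near 5 of 63 (7.94%, 2.63 to 17.6%) and 11 of 21 (52.4%, 29.8 to 74.3%), against 26.2%. The 5 were ATPsynO, ATPsyngamma, ND-B17.2, ND-B8 and UQCR-C1. The IDR list had 4 of 63 and 1 of 21, COX7AL2. The replicate 6 intervals of both subsets excluded the share of all genes, on opposite sides. The pooled intervals, 57 to 80.8% without and 18.1 to 61.6% with an L ending, both held it, and so did the replicate 5 intervals, 42.5 to 68.1% and 18.1 to 61.6%. Both subsets also differed in gene structure: another gene's TSS lay within 1000 bp of 79.4% of members without an L ending and of 28.6% of those with one, against 48.2% of all genes. Median gene lengths were 1178 bp and 703 bp, against 2166 bp. The part of gene density and length in these shares was not tested.

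**Figure D4:**
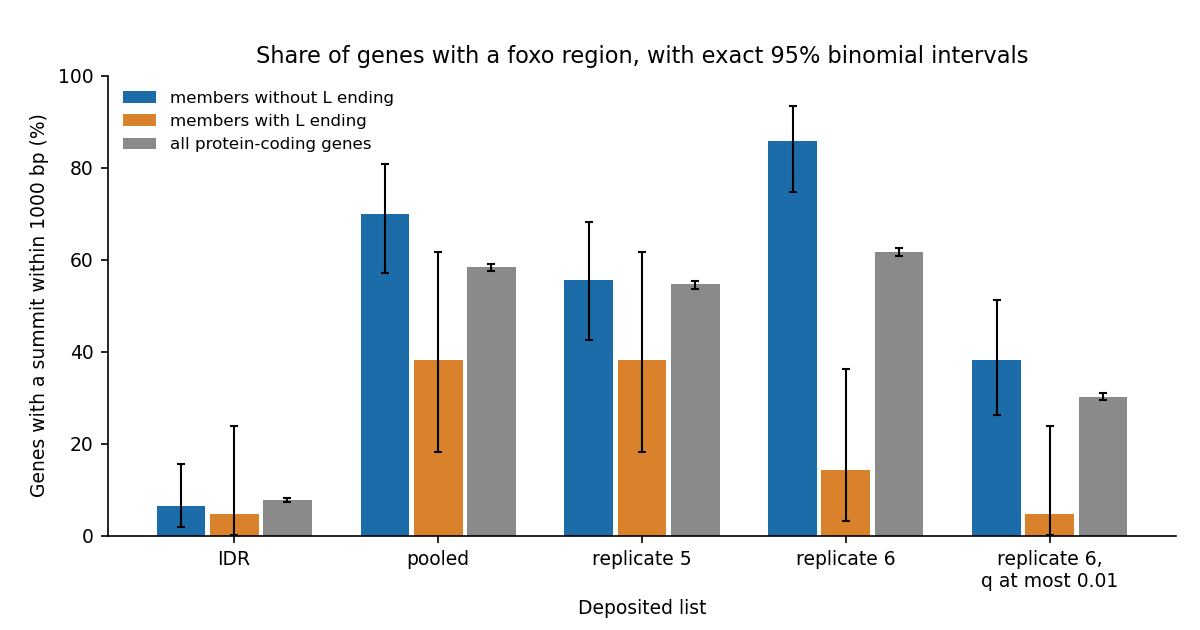
Share of genes (%) with a summit within 1000 bp of a TSS in each deposited list, for the 63 members without an L ending (blue), the 21 members with one (orange) and all 13945 protein-coding genes (grey). Bars start at 0 and error bars are exact 95% binomial intervals; the widest gap between blue and orange is in replicate 6, at 85.7% and 14.3%, against 61.6%.

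Summits lay upstream of the start about as often near members as near all genes. The best pooled summit was upstream of the nearest own TSS in 35 of 52 members (67.3%), against 72.4% over all genes with a region, and within 200 bp in 25 (48.1%), against 50.1%. Complex III had 1 of 6 upstream and complex V 1 of 4. In replicate 6 the summit was upstream in 44 of 57 (77.2%), against 70.4%, and in members without an L ending its median position was 96 bp upstream. Of the 52 pooled summits, 19 lay in intergenic sequence, 12 in a 5′ UTR, 8 in a 3′ UTR, 7 in an intron, 4 in coding sequence and 2 in a non-coding exon. No pooled region was shared by 2 members. The member's own TSS was the nearest of any gene's in 34 of 52, and another gene's TSS lay within 1000 bp of the summit in 32 of 52. The counts by place and by neighbour were not made over all genes. With any pooled summit counted only for the gene of the nearest TSS, 40 of 84 members had one (47.6%), against 48.4% of all genes.

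Forkhead matches were about as frequent in member promoters as in all promoters, and 1 motif of a general promoter factor was more frequent. Promoters were read from 250 bp before to 50 bp after the start of the canonical transcript, on both strands. The FOXO core TGTTTAC was in 7 of 84 member promoters (8.33%), against 9.36% of all genes, and RYAAAYA in 55 (65.5%), against 62.8%. The GAGA sequence GAGAGAG was in 1 (1.19%), against 6.21%, the DNA replication-related element TATCGATA in 8 (9.52%), against 8.95%, and the E-box CACGTG in 4 (4.76%), against 4.29%. The sequence GGTCACACT, bound by the promoter factor M1BP, was in 16 (19%, 11.3 to 29.1%), against 5.87% of all genes. It was in 15 of 63 members without an L ending (23.8%) and in 1 of 21 with one, COX7AL.

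A set of 5 M1BP matches within 150 bp of a replicate 6 summit is shown because these promoters carry both. The dm6 sequence runs 5′ to 3′ along the gene's strand, and capitals mark the match, which reads as its reverse complement AGTGTGACC where it is on the opposite strand.
ND-13A (chr2L:5100262-5100290, minus strand): ttaaataaccAGTGTGACCgctgatcggt
COX5A (chr3R:11819313-11819341, plus strand): ttgaagatgcAGTGTGACCgcaattaaat
ATPsynC (chr3R:31219778-31219806, minus strand): ctactgttatGGTCACACTgcgcctattg
ATPsynD (chr3R:19094884-19094912, plus strand): ggcagctgatAGTGTGACCgacccgaggg
UQCR-Q (chr3L:17475068-17475096, plus strand): gcccgtccacGGTCACACTggttgagacg
The match of ATPsynC was 13 bp from a replicate 6 summit, that of ATPsynD 13 bp, ND-13A 25 bp, UQCR-Q 59 bp and COX5A 75 bp. Of the 16 matches, 9 lay within 150 bp of a replicate 6 summit (56.2%), against 54% of 843 matches in promoters of all genes, and 3 within 150 bp of a pooled summit (18.8%), against 40.7%. The closeness to replicate 6 summits was thus near that of M1BP matches at large. The motif was in 8 of 25 members with a replicate 6 region at a q-value of at most 0.01 (32%) and in 8 of 59 without one (13.6%), with intervals of 14.9 to 53.5% and 6.04 to 25% that overlap.

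A further element was found near many members, mostly downstream of the start. The nuclear respiratory gene (NRG) element, a palindrome-like sequence of 10 bases known from Drosophila nuclear genes for mitochondrial proteins, was in 0 of 84 promoter windows, against 0.875% of all genes. A wider window, 1000 bp to each side of the canonical start, was searched after this result was seen. It held an NRG element in 30 of 84 members (35.7%, 25.6 to 46.9%), against 810 of 13945 genes (5.81%). The element was near 28 of 63 members without an L ending (44.4%) and 2 of 21 with one (9.52%). By complex, 10 of 40 genes of complex I had one, 2 of 4 of complex II, 2 of 9 of complex III, 7 of 16 of complex IV and 9 of 15 of complex V.

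Of the 32 sites at these 30 members, 29 lay downstream of the start (90.6%), against 38.6% of the 845 sites near all protein-coding genes. Their median position was 244.5 bp downstream, and 22 lay in an intron of the member. Between 200 and 300 bp downstream there were 14 sites (43.8% of the members' sites), against 5.8% of the sites of all genes. The 49 sites of all genes in it include these 14. This interval was not planned and lies around the members' own median position, so these counts are a description only. Sites of this interval from each complex are shown because they carry this pattern, in dm6 sequence 5′ to 3′ along the gene's strand with the element in capitals.
ND-B22 (chr2L:13370792-13370821, minus strand): attcccaaatATTATATAATgagcaagtgc
ND-MNLL (chrX:7893573-7893602, minus strand): actcgtttttATTACGTAATgcggcaaaat
SdhD (chr3R:23760378-23760407, minus strand): aacagctttcATTATATAACcaaaccgttt
UQCR-C1 (chr3R:14890462-14890491, plus strand): gaggatttaaATTACGTAATtgtaaatgat
UQCR-Q (chr3L:17475265-17475294, plus strand): cagtgcgaaaATTACATAACctccgggtgc
COX7B (chr3L:17425683-17425712, plus strand): aaccttaaaaATTACATAATgtggataagc
ATPsynG (chr2L:10976167-10976196, minus strand): caatcgcaaaATTATGTAATgatcactttt
ATPsynO (chr3R:15265818-15265847, plus strand): gcgtttcttgGTTATGTAATttttgcccat
UQCR-C1, ATPsynO and ND-B8 have this element and no foxo region in any list. NRG sites within 150 bp of a summit numbered 5 of 32 in the pooled list (15.6%, against 12.9% of the sites of all genes), 3 in replicate 5 (9.38%, against 11.1%) and 7 in replicate 6 (21.9%, against 15.5%). Among members without an L ending, a pooled region was found near 17 of 28 with the element (60.7%) and 27 of 35 without it (77.1%), and a replicate 6 region near 85.7% of each.

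**Figure D5:**
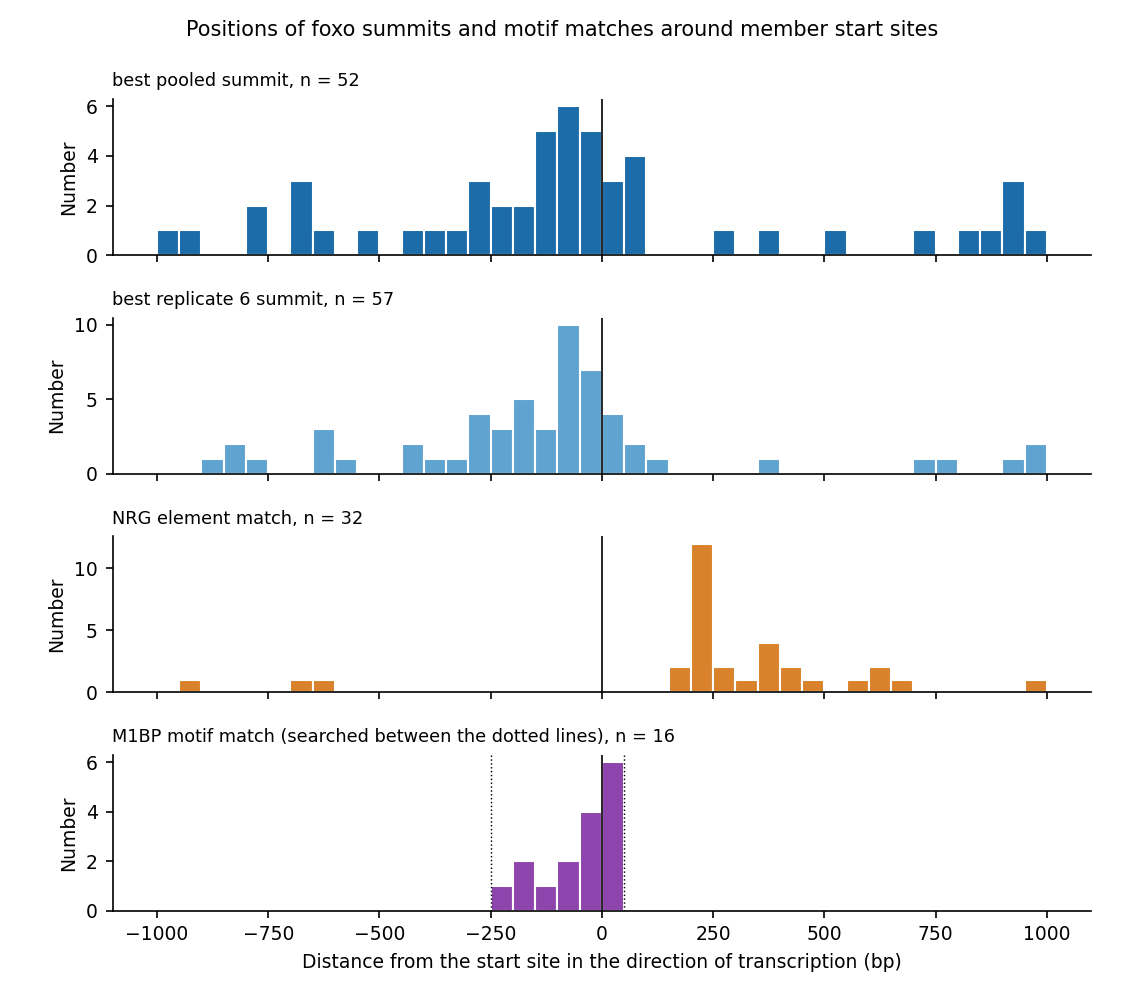
Number of members' best pooled summits, best replicate 6 summits, NRG element matches and M1BP matches by distance from the start in bp, in the direction of transcription and in steps of 50 bp; summits are placed from the nearest own TSS and motifs from the canonical start. Of the 52 pooled summits 35 lie left of 0, and NRG matches lie mostly right of it, around 244.5 bp, while M1BP was searched only between the dotted lines.

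Genes of the pathway that the symbol rule leaves out were read from 3 lists. Of 10 other subunit and cytochrome c genes, 3 had an IDR summit (30%, 6.67 to 65.2%, against 7.71% of all genes) and 7 a pooled region (70%, against 58.3%). Cyt-c-p, a cytochrome c gene, had a pooled signal of 114 at rank 389, 985 bp downstream of a TSS, with 63.9 at rank 331 in replicate 5 and 26.1 at rank 4406 in replicate 6. The ATP synthase alpha subunit gene blw had 93.4 at rank 651, 138 bp upstream, with 42.5 at rank 829 in replicate 5 and 51.5 at rank 844 in replicate 6. Cyt-c-d, the second cytochrome c gene, had 72.4 at rank 1277. The alpha subunit gene blw thus had an IDR summit within 1000 bp and ATPsynbeta, its partner in the catalytic head, did not.

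Of 6 assembly factor genes that matched the annotation, 1 had an IDR summit (16.7%, 0.421 to 64.1%, against 7.71% of all genes) and 4 a pooled region (66.7%, against 58.3%). CIA30, which helps to assemble complex I, had a pooled signal of 245 at rank 55, 150 bp upstream of its TSS, with 136 at rank 55 in replicate 5 and 111 at rank 75 in replicate 6. The signal was above that of any region within 1000 bp of a TSS of the 84 members in each list, and the ranks were alike in both replicates. Of 11 genes of the tricarboxylic acid cycle, 1 had an IDR summit (9.09%, against 7.71%), Fum1, through the peak it shares with ND-ASHI, and 9 had a pooled region (81.8%, 48.2 to 97.7%, against 58.3%). These lists are short, and their intervals are wide. Apart from Fum1, whether another gene's TSS lay nearer to their summits is not given here.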

How the data were processed

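ChIP-seq of tagged foxo was measured in 2 biological replicates of 1 group. Per the labels, both the dm6 and the dm3 assembly were used by the authors. The dm3 lists were not used here. Per the notes deposited with each sample, the authors made relaxed region lists of each replicate and of the pool with a control and thresholded them by IDR. Which aligner and caller they ran is not given in the sources used here. Signal values per region, as deposited by the authors, have an unstated scale, and the deposited significance column holds −log10 of a q-value. Depth per library is unknown.

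From these lists, summits were assigned to genes within 1000 bp of any TSS in Ensembl release 115, with transposable elements left out. Shares are given beside those of all 13945 protein-coding genes. The best region of a gene is the one of highest signal. No test was made, because 1 group of 2 replicates allows no contrast between conditions. Motif matches were counted on dm6 sequence. The neighbouring genes of some peaks are not reported here by name. Assignment and motif search were tested on simulated data. Python 3.11.15, numpy 2.4.6, pandas 2.3.3 and scipy 1.17.1 were used.

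The members and lists were chosen with earlier results of these data known. The genes named are the 4 Sdh genes, members with an IDR summit, the member of highest pooled signal in each complex, the 4 with the largest rank difference between replicates at the pooled region nearest to their TSS, and the first 6 by symbol without any region. All other members named, such as ATPsynbeta, ATPsynF and those with a motif site, fall outside this rule and were chosen after their values were seen. Alternatives were other distances, canonical TSSs only, higher thresholds, each replicate alone, any overlap, the nearest gene only and members without a paralog name; leaving out all 21 members with an L ending was chosen after seeing the data.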

Additional observations from a re-analysis of the deposited data

How the results depend on the processing

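Of 62 alternative values of the counts and the median percentile, 47 stayed within 1.5 times the count given or within the spread between replicates, and 15 did not. The 5 members with an IDR summit became 8 within 2000 bp (9.82% of all genes), 2 with the 713 peaks of highest signal (3.93%) and 1, COX7AL2, when a summit counted only for the gene with the nearest TSS (5.62%). With 1 replicate left out, the count was 3 to 4. The 3 members of complex I became 0 with the nearest gene only and 2 to 3 with 1 replicate left out. Complex II had 1 within 2000 bp. Complex IV had 2 within 2000 bp, 0 with those 713 peaks and 0 to 1 with 1 replicate left out. Complex V had 0 within 500 bp, 0 with those 713 peaks, 0 with the nearest gene only and 0 to 1 with 1 replicate left out. For all genes the share with an IDR summit was 6.25% within 500 bp and 9.82% within 2000 bp. It was 3.93% with those 713 peaks, 5.62% with the nearest gene only, 7.6% without replicate 5 and 7.44% without replicate 6. The 52 members with a pooled region became 10 at a q-value of at most 0.01 (17.5% of all genes) and 43 to 57 with 1 replicate left out. The median percentile was 53.3 to 72.9 with 1 replicate left out. The causes were not tested beyond what each setting removes.

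No paired analysis was possible because both replicates belong to 1 group. With 2 replicates, no spread between animals can be estimated. Depth is unknown, so a missing region means only that none was listed. The control library was not analysed here, and binding in single tissues cannot be told from whole larvae.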
